A study of Mus musculus with 8 samples.

Results

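Immunity-related GTPases (IRG) are a family of interferon-inducible proteins of the mouse that act against bacteria and parasites living in vacuoles inside the cell. The 7 genes Igtp, Irgm1, Irgm2, Iigp1, Tgtp1, Tgtp2 and Ifi47, chosen by name, were followed among the 55376 genes of the deposited count table, of which 14382 had enough reads to be tested, including all 7. Dendritic cells, which take up and present antigen, had been grown from mouse marrow and given either heat-inactivated P. melaninogenica (PM) or heat-inactivated P. heparinolytica (PH) overnight. The comparison asks how the response of the cells differs between these bacteria of the genus Prevotella. There were 3 PM samples and 3 PH samples with the sample ids 1, 3 and 4, called replicates 1, 3 and 4 here. No untreated cells were analysed here, so every difference is between the bacteria. The sources used here do not give the mouse strain or age, the growth factors of the culture, or whether an id stands for an animal or a culture.

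IRG proteins fall into a pair of classes by their nucleotide-binding loop. In the GKS class (Iigp1, Tgtp1, Tgtp2, Ifi47) the loop carries the usual lysine, and these proteins load onto the membrane of the pathogen's vacuole, where they oligomerise and help to break it. In the GMS class (Irgm1, Irgm2, Igtp) a methionine stands in its place, and these proteins sit on membranes of the host cell and keep GKS proteins inactive there. Both classes are known to be transcribed in response to interferon, through promoter elements called gamma-activated sites (GAS) and interferon-stimulated response elements (ISRE), the second of which interferon regulatory factors bind.

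The loop codon separates the members into these classes. The 24 bases that encode the loop are shown for 6 members, from the coding sequence of GENCODE mouse release 21, 5′ to 3′, with the lysine or methionine codon in capitals. They were read at bases 247 to 270 of the coding sequence in Irgm1 and Irgm2, 271 to 294 in Igtp, 187 to 210 in Tgtp1 and Tgtp2 and 241 to 264 in Ifi47.
Igtp: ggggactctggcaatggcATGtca
Irgm1: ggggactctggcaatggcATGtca
Irgm2: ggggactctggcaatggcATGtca
Tgtp1: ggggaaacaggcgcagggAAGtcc
Tgtp2: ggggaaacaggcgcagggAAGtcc
Ifi47: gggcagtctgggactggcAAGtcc
The 3 GMS genes had the same 24 bases, and so had Tgtp1 and Tgtp2. Iigp1 also had the lysine codon. Over whole coding sequences, Tgtp1 and Tgtp2 were identical at 99.7% of 1245 aligned bases, while the GMS genes shared 62.4% to 65.6% with each other.

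Promoter letters were searched because the members moved together. RefSeq (GRCm38.p6) windows of 250 bases before to 50 bases after the start site were at hand for 6 of the 7 members. GAS was searched as TTCNNNGAA and ISRE as a pair of TTTC tetramers with 2 bases between, on both strands. In Igtp, Irgm2, Tgtp1 and Tgtp2 a GAS match was followed, with 2 bases between, by an ISRE match read on the opposite strand. The GAS match began 45 bases before the start site in Igtp, 75 in Irgm2, 88 in Tgtp1 and 81 in Tgtp2. Irgm1 had 2 overlapping ISRE matches, 30 and 24 bases before the start, and no GAS match, and Ifi47 had neither in this window. Other start sites of these genes were not searched. The matches are shown in capitals, 5′ to 3′ on the strand of the gene, to let the shared arrangement be seen.
Igtp, chr11:58199491-58199551, plus strand: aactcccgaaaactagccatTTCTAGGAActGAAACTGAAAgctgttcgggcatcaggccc
Irgm2, chr11:58214882-58214942, plus strand: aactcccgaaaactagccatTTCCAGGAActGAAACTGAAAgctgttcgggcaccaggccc
Tgtp1, chr11:48992294-48992354, minus strand: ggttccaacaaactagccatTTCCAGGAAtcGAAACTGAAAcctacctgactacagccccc
Tgtp2, chr11:49064253-49064313, minus strand: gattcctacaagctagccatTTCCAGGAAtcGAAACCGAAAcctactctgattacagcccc
Irgm1, chr11:48871421-48871470, minus strand: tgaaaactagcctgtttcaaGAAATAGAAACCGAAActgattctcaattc
Of 32851 promoter windows of this length in the RefSeq table, 8.3% held a GAS match, 3.44% an ISRE match and 0.454% both. The arrangement with 2 bases between occurred in 5 of the 32851 windows (0.0152%), which were those of the 4 members and of Gm12185, another IRG family gene. This spacing was chosen after the matches of the members had been seen, and a match of letters is a description of the sequence only.

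**Figure D1:**
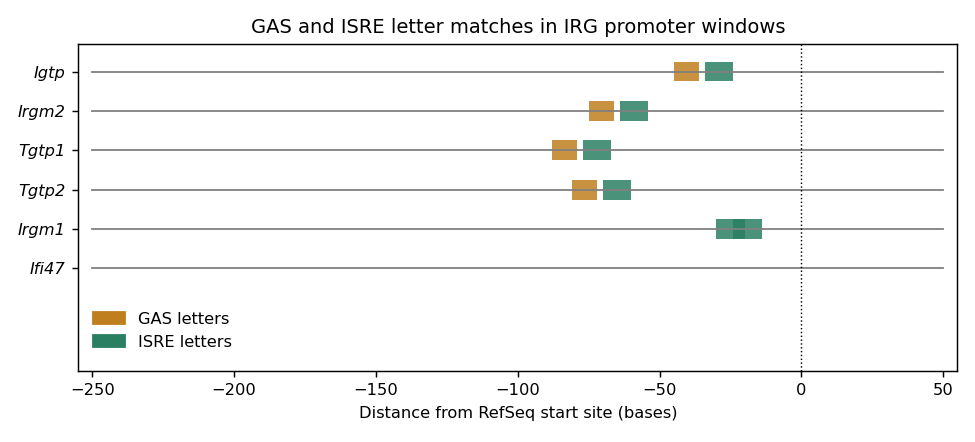
Positions of GAS letters (orange) and ISRE letters (green) in the promoter windows of 6 IRG members, with the distance from the RefSeq start site in bases on the horizontal axis. In Igtp, Irgm2, Tgtp1 and Tgtp2 a GAS match stands directly before an ISRE match, Irgm1 has 2 overlapping ISRE matches and Ifi47 has none.

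Cells given PM had lower levels of IRG transcripts than cells given PH. Of the 7 members, 6 fell with PM and 0 rose, at an adjusted p under 0.05 (edgeR quasi-likelihood test, Benjamini-Hochberg over all 14382 genes), while 1.64% of all genes tested were lower and 0.702% were higher by the same rule. The median log2 fold change, PM over PH, was -1.26 over the 7 members and 0.01 over all genes tested. In each of the 7 genes all 3 PM samples lay below all 3 PH samples, an order that 9.28% of all tested genes had. The summed level of the 7 genes was 73.0, 79.3 and 86.0 CPM (counts scaled to library size with TMM factors) in PM replicates 1, 3 and 4, against 194, 184 and 184 CPM in PH replicates 1, 3 and 4. In a bulk sample, fewer cells that express a gene and less of its RNA per cell cannot be told apart. With the sample id as a block, 7 members fell, while of all genes 1190 (8.27%) were lower and 1007 were higher. All 6 calls held when any 1 sample was left out. The count of all genes that were lower was 236, and it was 132 without PM replicate 3, 121 without PM replicate 4 and 107 without PH replicate 4. The count of all genes that were higher was 101, and it was 42 without PM replicate 3, 26 without PM replicate 4, 56 without PH replicate 1, 44 without PH replicate 3 and 35 without PH replicate 4.

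**Figure D2:**
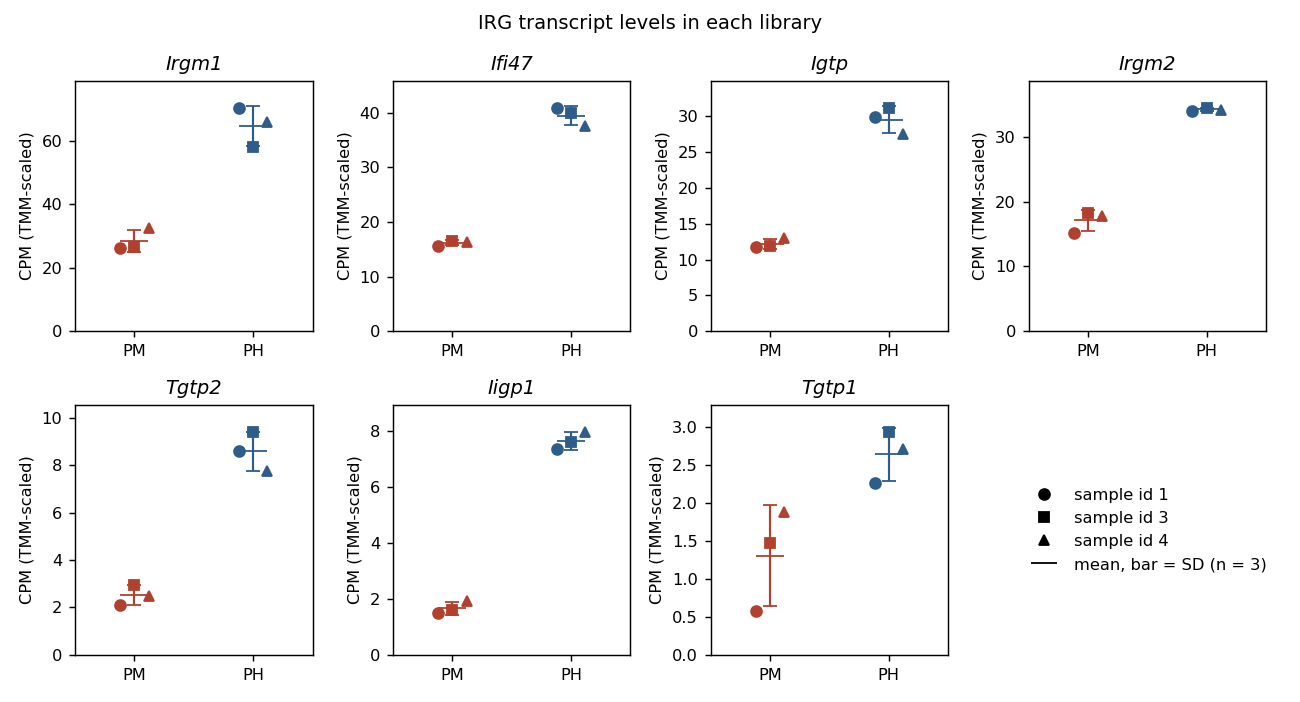
Level of each IRG member in CPM (vertical axes, starting at 0) in the PM samples (red, left) and PH samples (blue, right) of each gene, with the sample id as the marker shape and mean and SD of 3 samples as bars. The PM points lie below the PH points in all 7 genes, and relative to its mean the spread is widest in the PM samples of Tgtp1.

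Among the GMS regulators, Irgm1, which sits on Golgi, mitochondrial and lysosomal membranes and is needed for resistance to several bacteria, was the most abundant member. It had 26.3, 26.5 and 32.4 CPM in PM replicates 1, 3 and 4, against 70.5, 58.1 and 65.9 CPM in PH replicates 1, 3 and 4. The highest PM sample was well below the lowest PH sample. The log2 fold change was -1.19 ± 0.10 (SE), with adjusted p = 9.10e-04 by edgeR, a level 0.438 times that with PH. Irgm1 lies at chr11:48865245-48871420 on the minus strand (GRCm38).

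Igtp, also known as Irgm3, is a GMS protein of the endoplasmic reticulum and lipid droplets. It had 11.8, 11.9 and 13.04 CPM in the PM samples, against 29.9, 31.2 and 27.5 CPM in the PH samples, in the order of replicates 1, 3 and 4. The groups did not overlap, and the samples within each stood close together. Its log2 fold change was -1.26 ± 0.08 (SE, adjusted p = 3.35e-04 by edgeR).

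Irgm2, a Golgi-associated GMS protein, had 15.2, 18.3 and 17.8 CPM in PM replicates 1, 3 and 4, against 34.0, 34.5 and 34.2 CPM in the PH replicates of the same ids. The PH samples were nearly equal, and the PM samples were lower, with replicate 1 lowest. The log2 fold change was -1.0 ± 0.08 (SE, adjusted p = 7.58e-04 by edgeR). Igtp (chr11:58199556-58207591) and Irgm2 (chr11:58199618-58222782) share part of their exons on the plus strand, 8.01% of the exon length of Igtp and 4.39% of that of Irgm2. Reads from there could be given to either gene or to none, so these levels carry that uncertainty.

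Among the GKS effectors, Ifi47, also known as Irgd, was the most abundant. It had 15.7, 16.5 and 16.4 CPM in PM replicates 1, 3 and 4, against 40.9, 39.9 and 37.5 CPM in PH replicates 1, 3 and 4. Both groups were tight and far apart. The log2 fold change was -1.28 ± 0.07 (SE, adjusted p = 1.03e-04 by edgeR), which ranked 4 of 14382 by p. Exons of Ifi47 (chr11:49076587-49096974) overlap Olfr56 and the antisense gene Gm12188 over 11.5% of their length.

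Iigp1, also known as Irga6, a GKS protein that coats vacuoles of Toxoplasma gondii, had the largest change of the 7. It had 1.48, 1.598 and 1.92 CPM in PM replicates 1, 3 and 4, against 7.35, 7.60 and 7.99 CPM in PH replicates 1, 3 and 4. These rest on 31 to 75 counts in the PM samples and 88 to 321 counts in the PH samples. The log2 fold change was -2.18 ± 0.15 (SE, adjusted p = 3.35e-04 by edgeR), a level 0.221 times that with PH. It ranked 14 of 14382 in the size of the fall. Iigp1 lies at chr18:60376029-60392634 on the plus strand, away from the other 6 members, and shares no exon with another gene of the table.

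Tgtp1 and Tgtp2 encode Irgb6, a GKS protein that is among the early arrivals at the Toxoplasma vacuole. Tgtp2 had 2.10, 2.96 and 2.49 CPM in PM replicates 1, 3 and 4, against 8.58, 9.41 and 7.76 CPM in PH replicates 1, 3 and 4. It fell by 1.74 ± 0.16 (SE) on the log2 scale (adjusted p = 9.71e-04 by edgeR). Tgtp1 had 0.573, 1.46 and 1.87 CPM in PM replicates 1, 3 and 4, against 2.26, 2.94 and 2.71 CPM in PH replicates 1, 3 and 4. The PM samples of Tgtp1 were spread widely, with 12 counts in replicate 1, and the highest of them was near the lowest PH sample. Its log2 fold change of -0.93 ± 0.34 (SE) did not pass (adjusted p = 0.268 by edgeR), and it was -0.64 without PM replicate 1 and -1.30 without PM replicate 4. With the sample id as a block the value was -0.97 ± 0.22 (SE), which passed (adjusted p = 0.00212 by edgeR).

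The copies cannot be kept apart by short reads over most of their length. Of the windows of 50 bases in Tgtp1 transcripts of GENCODE release 21, 81.2% also occurred in a transcript of another gene, mostly Tgtp2 (79.4%). For Tgtp2 this share was 86.6%, for Igtp 11.8%, for Irgm2 7.77%, for Ifi47 2.54%, for Iigp1 1.69% and for Irgm1 0.31%. The sources used here do not say how the authors counted reads with several matches, so the counts of Tgtp1 and Tgtp2 may hold only part of their reads, and their single values are uncertain. Exons of Tgtp1 also overlap Gm12185 over 7.9% of their length. Summed to 1 feature, both genes fell by 1.51 ± 0.18 (SE) on the log2 scale, with adjusted p = 0.00367 in edgeR.

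Levels were compared between members only per gene length, as RPKM, which is CPM per kilobase of exon. With PM the order was Irgm1 at 12.3 ± 1.51, Ifi47 at 8.62 ± 0.25, Igtp at 6.05 ± 0.35, Irgm2 at 4.63 ± 0.45, Tgtp2 at 0.896 ± 0.153, Iigp1 at 0.533 ± 0.074 and Tgtp1 at 0.462 ± 0.236 RPKM (SD, n = 3). With PH the order was the same, with Irgm1 at 28.1 ± 2.71, Ifi47 at 20.99 ± 0.92, Igtp at 14.6 ± 0.93, Irgm2 at 9.27 ± 0.06, Tgtp2 at 3.06 ± 0.29, Iigp1 at 2.44 ± 0.10 and Tgtp1 at 0.934 ± 0.122 RPKM (SD, n = 3). The places of Tgtp2 and Tgtp1, and all shares of the sum, rest on counts that may hold only part of the reads of these copies, and could differ if all were counted. Neighbours in this order did not overlap between samples, apart from Iigp1 and Tgtp1 with PM. The 3 GMS genes, Irgm1, Irgm2 and Igtp, made up 68.6% ± 1.36 of the summed RPKM of the 7 genes with PM and 65.5% ± 1.23 with PH (SD, n = 3). Iigp1 made up 1.59% ± 0.10 with PM and 3.08% ± 0.22 with PH, and Irgm2 13.8% ± 0.93 with PM and 11.7% ± 0.45 with PH. Tgtp2 made up 2.67% ± 0.43 with PM and 3.85% ± 0.39 with PH. The shares of Iigp1, Irgm2, Tgtp2 and the GMS sum did not overlap between the groups, while those of Igtp, Irgm1, Tgtp1 and Ifi47 did. These differences between members were not tested.

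**Figure D3:**
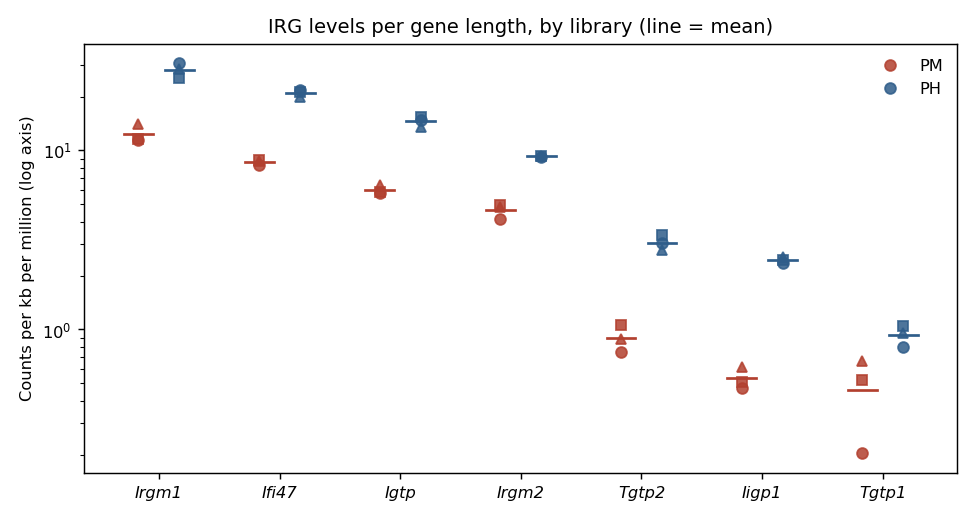
Level of each IRG member per gene length (RPKM, log axis) in each PM sample (red, left of each pair) and PH sample (blue, right), with a line at the mean and the sample id as the marker shape. The order of the 7 genes by mean is the same in both groups, from Irgm1 down to Tgtp1.

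Within the sample ids the direction was the same for each gene. The log2 ratio of CPM, PM over PH, was below 0 in 3 of 3 ids for all 7 members. For Iigp1 it was -2.31, -2.25 and -2.05 in ids 1, 3 and 4, and for Ifi47 it was -1.38, -1.27 and -1.19. For Irgm1 it was -1.42, -1.13 and -1.02, and for Tgtp1 it ranged from -1.98 in id 1 to -0.53 in id 4. Id 1 gave the largest fall in 6 of 7 members, all but Igtp, whose ratio was -1.39 in id 3 and -1.35 in id 1. The PM column of id 1 and the PH column of id 3 match 2 libraries each by name. Without both columns the 6 calls held.

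The ranges of fold change overlapped between the classes, through Tgtp1 only, and between genes with and without the paired letters in the windows searched. The GMS genes lay between -1.26 and -1.0 on the log2 scale, inside the range of the GKS genes from -2.18 to -0.93. The upper end of that range is Tgtp1 (-0.93 ± 0.34 SE, not passed), whose single value is uncertain. Summed with Tgtp2 it was at -1.51. The other GKS genes, Ifi47, Tgtp2 and Iigp1, lay at -1.28, -1.74 and -2.18, below all GMS genes. Ifi47 (-1.28 ± 0.07 SE) was close to Igtp (-1.26 ± 0.08 SE). Whether the classes differ was not tested. The 4 genes with GAS and ISRE letters next to each other lay between -1.74 and -0.93, around the values of -1.19 for Irgm1 and -1.28 for Ifi47.

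Part of the other family genes also fell. Of 10 further IRG family genes, 9 were tested, 3 fell, 0 rose and 6 did not pass, and the median over the 9 was -1.06 on the log2 scale. With the block 5 fell and 1 rose. When 1 sample was left out of the fit without the block, 2 to 3 passed. Gm12250, listed by RefSeq as Irgb10, known to target bacterial membranes for inflammasome activation, had 1.86, 1.86 and 2.05 CPM in PM replicates 1, 3 and 4, against 6.45, 6.13 and 6.84 CPM in PH replicates 1, 3 and 4. It fell by 1.75 ± 0.14 (SE) on the log2 scale, with adjusted p = 6.69e-04 in edgeR. Gm4951, a neighbour of Iigp1, had 2, 11 and 21 counts in the PM samples against 51, 22 and 105 counts in the PH samples, and its log2 fold change was -2.60 ± 0.38 (SE, adjusted p = 0.00895 by edgeR). Gm5431 changed by -1.06 ± 0.19 (SE, adjusted p = 0.0237 by edgeR). All PM samples lay below all PH samples in 6 of the 9 tested genes, among them these 3, against 9.28% of all genes tested.

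The other 6 tested family genes did not pass in edgeR. F830016B08Rik was at -2.56 ± 0.66 (SE), on 0 to 3 counts per PM sample and 5 to 17 per PH sample, with adjusted p = 0.102, or 0.00378 with the block. The tandem genes 9930111J21Rik2 and 9930111J21Rik1 were at -0.67 ± 0.15 and -0.45 ± 0.41 (SE), with adjusted p = 0.0646 and 0.714, and the first passed with the block (0.00429). Gm12185, which overlaps Tgtp1, was at -1.10 ± 0.40 (SE, adjusted p = 0.271 by edgeR). Gm4841, with 0 to 11 counts per PM sample and 7 to 31 per PH sample, was not tested. A pair of family members on chromosome 7 stood apart in value. Irgq, a family member without the usual GTPase function, was at 58.0 ± 3.17 CPM with PM and 62.5 ± 4.97 CPM with PH (SD, n = 3). The ratio on the log2 scale was -0.11 ± 0.07 (SE), with adjusted p = 0.616 in edgeR. Irgc1, known for its expression in testis, had 1.67, 1.93 and 1.98 CPM in PM replicates 1, 3 and 4, against 0.616, 0.518 and 1.07 CPM in PH replicates 1, 3 and 4. Its log2 fold change was 1.22 ± 0.27 (SE), with adjusted p = 0.0633 in edgeR and 6.05e-04 with the block, so that this gene was higher with PM in the blocked fit.

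**Figure D4:**
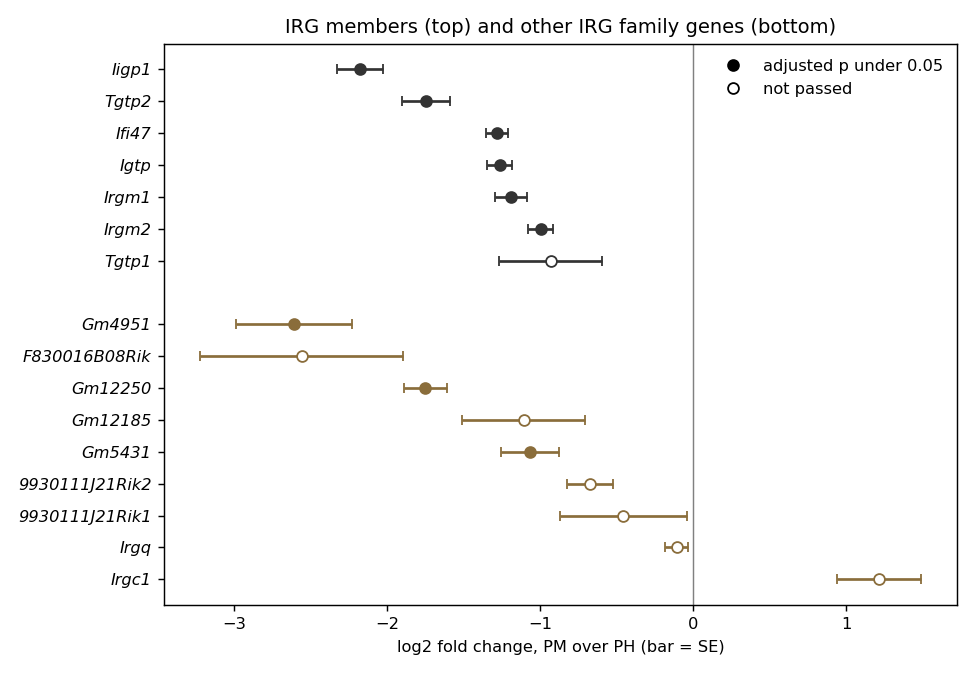
Log2 fold change, PM over PH (horizontal axis, bar = SE), of the 7 IRG members (top, dark) and the 9 tested other IRG family genes (bottom, brown), filled where the adjusted p was under 0.05. The 7 members lie between -2.18 and -0.93, while Irgq lies near 0 and Irgc1 at 1.22.

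Genes of other families near the IRG genes did not pass in the edgeR fit without the block, as was the case for most genes tested. Except for Irgq and Irgc1, the family genes lie in 3 clusters, from Irgm1 to Ifi47 over 231.7 kb and from Gm12250 to Irgm2 over 35.04 kb on chromosome 11, 9.09 Mb apart, and from Gm4951 to Iigp1 over 180.6 kb on chromosome 18. Within 500 kb of these clusters the table had 31 tested genes of other families, such as Rack1, Mgat1, Larp1, Cnot8, Rps14 and Cd74. Of these, 0 passed in edgeR, against 3 at an unadjusted p under 0.05, 1 with DESeq2 and 4 with the block. Among all 14382 genes tested, 337 passed in edgeR, against 1890 at an unadjusted p under 0.05, 577 with DESeq2 and 2197 with the block. Whether the 31 genes pass less often than all genes was not tested, and 31 genes are few for such rates. The log2 fold changes of the 31 genes lay between -0.42 and 0.45. This comparison was added after the values of the members were known.

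Transcription factors of interferon signalling were lower in part. Of 6 in the list, 4 fell and 0 rose, and 3 to 5 passed when 1 sample was left out. Their link to the IRG levels was not tested. Irf1, an interferon-induced activator that is needed for IRG expression, was at 158 ± 14.9 CPM with PM and 230 ± 21.1 CPM with PH (SD, n = 3), a change of -0.54 ± 0.09 (SE, adjusted p = 0.0190 by edgeR). Irf9, an interferon regulatory factor of type I interferon signalling, changed by -0.53 ± 0.07 (SE, adjusted p = 0.00708) and Irf7 by -2.23 ± 0.17 (SE, adjusted p = 5.63e-04). Irf1, Irf7 and Irf9 were lower with PM in 3 of 3 ids. Stat2 and Irf8 did not pass in the edgeR fit without the block (adjusted p = 0.0646 and 0.541) and passed, both lower, in the fit with it (8.83e-09 and 0.0412).

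The interferon genes themselves were at or near 0. Ifng had 3, 10 and 18 counts in PM replicates 1, 3 and 4, against 14, 12 and 38 counts in PH replicates 1, 3 and 4. This was 0.313 ± 0.160 CPM with PM and 0.852 ± 0.245 CPM with PH (SD, n = 3), and the change of -1.30 ± 0.40 (SE) did not pass (adjusted p = 0.182 by edgeR, 0.00753 with the block). Ifnb1 had 0, 2 and 3 counts in the PM samples and 4, 1 and 0 counts in the PH samples and was not tested. Of the 8 interferon genes in the list, 5 had 0 counts in all 6 samples.

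Receptors and Janus kinases did not pass. Of 7 tested, 0 passed in edgeR, 0 had an unadjusted p under 0.05, 0 passed with DESeq2 and 1 was lower with the block (Jak2). Ifngr1, a chain of the interferon-gamma receptor, was at 65.3 ± 4.77 CPM with PM and 67.6 ± 2.49 CPM with PH (SD, n = 3), and Ifnar1 of the type I receptor at 132 ± 10.2 CPM with PM and 136 ± 9.21 CPM with PH. Jak2 was at -0.14 ± 0.08 (log2, SE), with adjusted p = 0.534 in edgeR and 0.0421 with the block. Of 5 inhibitors of the pathway, 0 passed in edgeR, against 3 at an unadjusted p under 0.05, 1 with DESeq2 and 3, all lower, with the block. These were Usp18, Socs3 and Socs1, at -0.58 ± 0.14, -0.50 ± 0.20 and -0.29 ± 0.09 (log2, SE) without the block. With the block they were at -0.60 ± 0.06, -0.53 ± 0.06 and -0.30 ± 0.06 (log2, SE). The adjusted p-values with the block were 9.45e-09, 4.47e-08 and 5.42e-04 in edgeR. Without PM replicate 1, 3 inhibitors passed.

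The guanylate-binding proteins, larger interferon-inducible GTPases that act at the same vacuoles, fell with the IRG genes. Of 8 tested, 7 fell and 0 rose, and 8 were lower with the block. The count that passed was 5 without PH replicate 4. The median over the 8 was -0.98 on the log2 scale, with a range from -1.62 for Gbp6 to -0.34 for Gbp8. Gbp2 changed by -1.0 ± 0.07, Gbp3 by -1.0 ± 0.08 and Gbp7 by -1.26 ± 0.12 (SE), close to the fold changes of the GMS genes in size. The Atg8 conjugation machinery, known to be needed for loading GKS proteins onto vacuoles, had a median of 0.09 on the log2 scale. Of 11 tested, 0 passed in edgeR and 0 with DESeq2, 3 had an unadjusted p under 0.05, and 5 were higher with PM and 0 lower in the blocked fit. Atg7, the activating enzyme of this system, was at 0.27 ± 0.09, Map1lc3a at 0.22 ± 0.07 and Map1lc3b at 0.15 ± 0.06 (log2, SE), with adjusted p = 0.220, 0.215 and 0.345 in edgeR, and 8.69e-04, 0.0223 and 0.0251 with the block. Of 4 ubiquitin-linked genes and regulators at the vacuole, 1 fell, the antibody receptor and ubiquitin ligase Trim21 (-0.56 ± 0.08 SE, adjusted p = 0.00806 by edgeR), a call that was lost without PH replicate 4. Traf6 was at -0.10 ± 0.08 and Sqstm1 at 0.05 ± 0.08 (log2, SE), and neither passed.

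**Figure D5:**
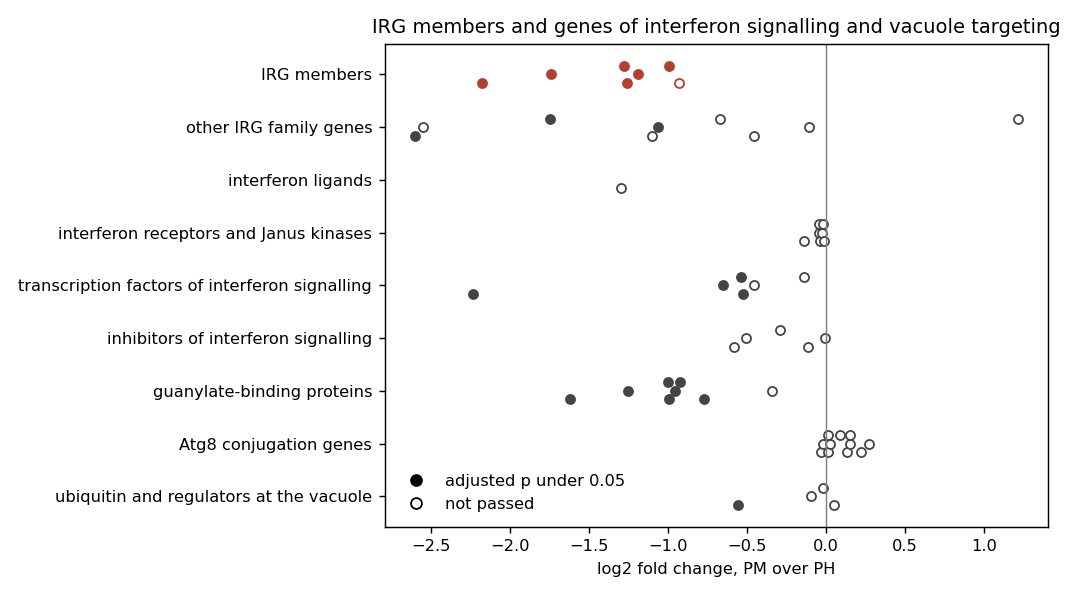
Log2 fold change, PM over PH (horizontal axis), of each tested gene in the IRG members (top row, red) and in 8 lists of related genes (rows below), filled where the adjusted p was under 0.05. The tested IRG members, guanylate-binding proteins and transcription factors lie left of 0, while receptors, Janus kinases and Atg8 conjugation genes lie near 0.

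The genes whose profile over the 6 samples was nearest to the mean IRG profile came from several families. Nearness was the root mean square difference of centred log2 CPM. It was 0.0717 for Il23a, a subunit of interleukin-23, 0.106 for Gbp7 and 0.117 for Trim30b, and up to 0.184 for the others of the nearest 10, which were Phf11d, AW011738, Ifi27l2a, Cd247, Ubd, Shisa3 and Trim30d. The members themselves lay between 0.121 for Igtp and 0.397 for Tgtp1. Il23a had 1.00, 1.13 and 1.28 CPM in PM replicates 1, 3 and 4, against 3.24, 3.54 and 3.19 CPM in PH replicates 1, 3 and 4.

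Total counts ranged from 21192990 to 38231719 in the PM samples and from 11624367 to 40233148 in the PH samples. Markers of dendritic cells were expressed in both groups, with a summed level of 6920 to 7843 CPM with PM and 6983 to 8161 CPM with PH, and Xcr1, of a conventional subset, near 0. Of 11 tested, 0 passed in edgeR, 2 had an unadjusted p under 0.05, 1 passed with DESeq2, and 1 was higher and 2 were lower with the block. Markers of NK cells, a source of interferon-gamma, summed to 13.9 to 17.7 CPM with PM and 22.8 to 29.4 CPM with PH. Of 3 tested, 1 fell in edgeR, the protease gene Gzmb at -0.85 ± 0.09 (SE, adjusted p = 0.00282), and 2 were lower with DESeq2 and with the block. Gzma, a second protease gene, was at -1.06 ± 0.23 (SE, adjusted p = 0.0522 by edgeR, 5.27e-06 with the block), with all PM samples below all PH samples. Ncr1, the defining receptor, averaged 0.0663 CPM with PM and 0.0864 CPM with PH. T cell markers summed to 17.2 to 25.1 CPM with PM and 17.1 to 27.7 CPM with PH, and of 6 tested 0 passed in edgeR or DESeq2, at an unadjusted p under 0.05 or with the block. Neutrophil markers summed to 323 to 450 CPM with PM and 437 to 538 CPM with PH, with 1 of 7 lower in edgeR (Csf3r) and 4 with the block. Macrophage markers summed to 1218 to 1703 CPM with PM and 1070 to 1531 CPM with PH. Of 6 macrophage markers tested, 1 was higher and 0 were lower in edgeR. With DESeq2 2 were higher and 0 lower, and with the block 2 were higher and 1 was lower. Monocyte markers summed to 272 to 367 CPM with PM and 324 to 454 CPM with PH, B cell markers to 8.69 to 19.2 CPM with PM and 8.03 to 14.8 CPM with PH, and plasmacytoid dendritic cell markers to 90.6 to 105 CPM with PM and 105 to 117 CPM with PH, with Siglech at or near 0. In edgeR 0 of these 13 tested markers passed, with 4 at an unadjusted p under 0.05, 2 with DESeq2 and 5 with the block. Whether other cell types take part in the IRG difference was not tested.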

How the data were processed

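Per the labels, polyadenylated RNA was sequenced from strand-marking libraries. The authors deposited a table of raw counts, in whole reads for each gene. The submitters' processing notes name Trimmomatic, STAR 2.5.3a, featureCounts 1.6.4 and GRCm38. The sources used here do not give the annotation, the strand setting or how multiply mapped reads were counted. The series lists 8 libraries, of which 2 are labelled run 2 (PM id 1 and PH id 3), and the table has 6 count columns. Each column was used as 1 sample, and whether the columns of these ids hold 1 run or both is not given. No 2 columns were alike to within sampling noise (chi-square per degree of freedom at least 4.63 over 15 pairs). Since no source says that ids are separate animals or cultures, p-values reflect sample-to-sample spread that may be technical.

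The test was that of edgeR 4.0.16 in R 4.3.3, after filterByExpr (minimum count 10) and TMM scaling, with the quasi-likelihood test and no covariate, and p-values were adjusted over all 14382 genes (Benjamini-Hochberg, threshold 0.05). The SE is the log2 fold change over the square root of F. CPM and RPKM use TMM-scaled totals and the Length column of the table, in bases, deposited by the authors. Motifs, windows of 50 bases and coding alignments (Biopython 1.88) were computed from RefSeq and GENCODE sequences. The scripts were tested on simulated data. There, 51.5% of genes changed by 1.5 fold were recovered, 84.8% at 2 fold and 92.4% at 3 fold. Of 166 calls, 15 were false. The simulated counts had no effect of the sample id. In the deposited data, samples of the same id were correlated, so these rates may not hold there. Smaller changes were not simulated, so a gene that did not pass may still differ.

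Log2 CPM (prior count 2), centred on each group mean, correlated between PM and PH samples of the same id at 0.44 (id 1), 0.32 (id 3) and 0.24 (id 4), and between different ids at -0.35 to 0.07. Centring makes the deviations within a group sum to 0, so positive values at the same id go with negative values between ids. Pairing by id was inferred from these data and is not stated by the labels. The main calls and the figures therefore use the fit without the block. Where a call changes with the block, the blocked value or count is given beside it. Alternatives were DESeq2 1.42.0, other scalings and filters, the block, leaving out samples, and a summed Tgtp feature. The text names the 7 members, the other IRG family genes, Ifng, Ifnb1, Irf1 and Irf9, the 3 genes with the smallest p in each other list, and the 10 genes nearest in profile, and other genes it names were chosen after their values were seen. Some genes that this rule or the lists take in are not reported here. The members and lists were chosen with earlier results of these data known.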

Additional observations from a re-analysis of the deposited data

How the results depend on the processing

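Igtp, Irgm1, Irgm2, Iigp1, Tgtp2 and Ifi47 were lower with PM and passed under all 13 alternatives run on them, with adjusted p up to 0.0110. Tgtp1 was lower under all 14 of its alternatives and passed with no low-count filter (-0.93), with the replicate block (-0.97) and as part of the summed Tgtp feature (-1.51). Of all genes, 337 passed in edgeR, against 577 with DESeq2, 846 with no low-count filter, 2197 with the block, 629 without both columns that match 2 runs and 142 to 417 when 1 sample was left out. In all 8 lists together 15 genes passed, against 23 with no filter and 31 with the block. With no filter the other IRG family had 6 calls, the ligands 1, the inhibitors 2 and the Atg8 genes 1. With the block the other IRG family had 6, the ligands 1, the receptors and kinases 1, the inhibitors 3 and the Atg8 genes 5. The inhibitors had 1 with DESeq2, 3 without both columns that match 2 runs and 0 to 3 when 1 sample was left out, and the vacuole regulators 0 to 1. The cause of these shifts was not tested. The block changed no call of a member other than Tgtp1. The lowest member count was 12, of Tgtp1 in PM replicate 1, and how calls vary with depth was not tested. No group had more than 3 samples, so single samples could not be screened as outliers.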
